A study of Mus musculus with 9 samples.

Results

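The mouse genes Zfp600 to Zfp999 carry C2H2 zinc fingers in nearly all cases and were taken from a table of 24100 Entrez gene IDs, of which 24045 were matched to a symbol. Every ID with a symbol from Zfp600 to Zfp999 was a member, leaving out 10 genes of a single zinc finger array on distal chromosome 4 (mm10). This gave 149 members, of which 1 is a long noncoding RNA and the others are protein coding. Of these, 143 had enough counts to be tested, and Zfp616, Zfp648, Zfp735, Zfp819, Zfp831 and Zfp957 did not, with means of 0.00823 to 0.488 CPM (read counts scaled to a common library size). The members are not a single family by descent or function: the number in a symbol is a naming order.

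A C2H2 zinc finger is a short fold around a zinc ion that reads a few bases of DNA, and arrays of fingers let a protein bind a long site. Many mouse Zfp proteins also carry a KRAB box, which recruits the corepressor Trim28 (KAP1) and, through it, the H3K9 methyltransferase Setdb1, heterochromatin protein 1 and histone deacetylases. KRAB zinc finger genes arose by repeated local duplication, sit in gene clusters, and are best known for silencing endogenous retroviruses and imprinted regions in embryonic stem cells and their progeny.

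The cells were differentiated from mouse embryonic stem cells and are neural by label. In all groups a PiggyBac transposon had stably inserted a transgene for 3HA-tagged histone H4, on top of the cells' own H4 genes. The transgene was H4K91R (lysine 91 replaced by arginine), H4K91Q (by glutamine, often used in place of acetylated lysine) or wild-type H4WT, with 3 libraries of poly(A) RNA each. The labels do not say whether the 3 libraries of a group came from separate lines or differentiations, so p-values measure only the spread between these libraries.

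Total counts ran from 8970553 to 28887501 per library (median 16364686), and a count of 0 allows at most 0.111 to 0.367 CPM, counting error only. Markers of neural cells summed to 1240 to 1476 CPM in H4K91R, 955 to 1048 CPM in H4K91Q and 422 to 436 CPM in H4WT, and 9 of 10 were called higher in each mutant, while the tenth, Nes, was called lower in H4K91Q (log2 change -0.49, adjusted p 0.00299). Smooth muscle markers summed to 412 to 679 CPM in H4K91R, 380 to 443 CPM in H4K91Q and 3883 to 4673 CPM in H4WT, and all 5 tested were called lower in each mutant. Pluripotency markers summed to 16.7 to 29.1 CPM in H4K91R, 99.4 to 167 CPM in H4K91Q and 41.7 to 69.5 CPM in H4WT. Of these, 5 of 6 were called lower in H4K91R and 5 of 6 higher in H4K91Q. Fibroblast and mesenchyme markers summed to 5654 to 6605, 5683 to 6330 and 5121 to 5850 CPM in the same 3 groups. Of all tested genes, 20.9% were called higher and 25.1% lower in H4K91R, and 22.5% higher and 23.8% lower in H4K91Q. The neural, smooth muscle and pluripotency sums of each mutant did not overlap those of H4WT, and the part of cell types in the results on zinc finger genes was not tested. In such bulk RNA, fewer cells of a type and less RNA per cell cannot be told apart.

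Most members were present at low to moderate levels. The 143 tested members had a median level of 14.2 CPM over the 9 libraries, against 27.3 CPM for all tested genes, and ran from 0.443 to 214 CPM. Per kilobase of exon, the highest were Zfp706 at 43.7 CPM per kb, Zfp664 at 30.8, Zfp622 at 29.2, Zfp740 at 26.3 and Zfp869 at 25.1. Zfp706 restrains self-renewal of mouse embryonic stem cells, and Zfp622 takes part in ribosome assembly. Of these 5 genes only Zfp740 was called, higher in both mutants, by 0.22 ± 0.07 on the log2 scale in H4K91R and 0.21 ± 0.07 in H4K91Q (SE, adjusted p 0.0144 and 0.0193).

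A KRAB box was found in 93 of the 147 members with a coding sequence, and 54 had none. The median number of fingers was 12 with a KRAB box and 7 without. Runs of at least 3 members with starts within 500 kb of the next formed 15 gene clusters with 80 members, of which 66 had a KRAB box.

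In H4K91R, more members rose than fell, and most did not pass. Of the 143 tested members, 38 were higher in H4K91R (20.9% of all 14761 tested genes were called higher) and 6 were lower (25.1% of all tested genes), and 99 did not pass (edgeR quasi-likelihood test, Benjamini-Hochberg adjusted p below 0.05 over all tested genes). The median log2 change of the members was 0.18, against -0.03 for all tested genes. The members' changes were small: 6 rose and 1 fell at least 2-fold, where 9.18% and 4.59% of all tested genes did. With libraries scaled by their totals alone, the median of all tested genes itself was 0.15, and 77 members were counted as higher and 2 as lower.

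H4K91Q against H4WT gave 55 members higher (22.5% of all tested genes were called higher), 5 lower (23.8%) and 83 that did not pass. The median log2 change was 0.30, against 0.01 for all tested genes, and 5 members rose and 1 fell at least 2-fold (8.38% and 4.17% of all tested genes). With library totals alone the median of all tested genes was 0.18, and 94 members were higher and 2 lower. The comparisons share the H4WT libraries. Across them, 31 members were higher in both mutants (16.7% of all tested genes), 2 were lower in both (19.4%), 7 were higher in H4K91R alone and 24 in H4K91Q alone, and none was called in opposite directions. A call in one mutant alone does not show a difference between them.

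**Figure D1:**
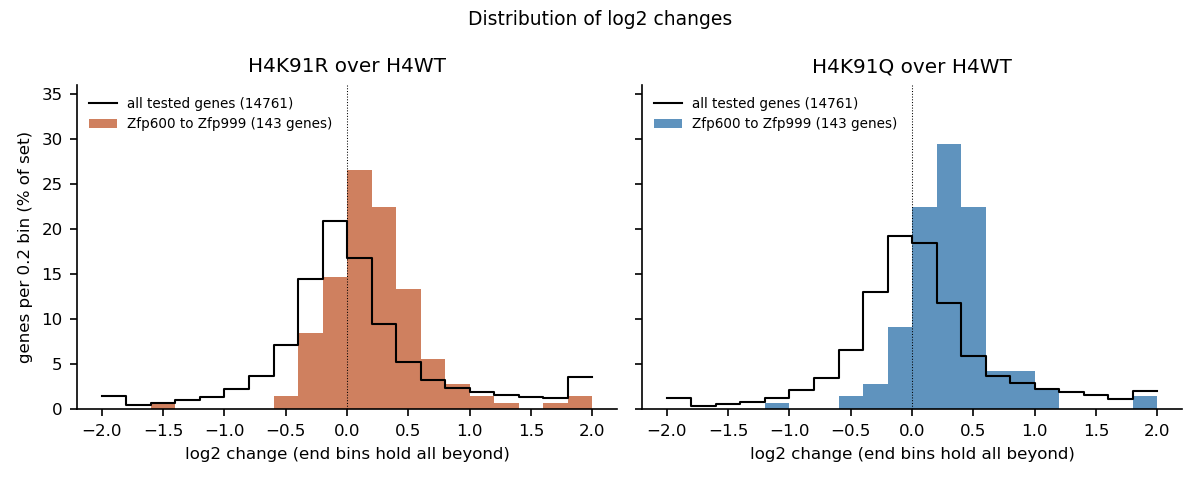
Distribution of log2 changes of the 143 tested zinc finger genes (bars) and of all 14761 tested genes (line), as the percentage of each set per bin of 0.2, for H4K91R over H4WT (left) and H4K91Q over H4WT (right). The bars lie mainly to the right of 0, with medians of 0.18 and 0.30, and hold few members in the outer bins.

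Of 190 tested genes among the other numbered Zfp genes, Zfp1 to Zfp599, 61 (32.1%) were higher and 12 (6.32%) lower in H4K91R. In H4K91Q 76 (40%) were higher and 10 (5.26%) lower. For Zfp600 to Zfp999 the shares were 26.6% and 4.2% in H4K91R and 38.5% and 3.5% in H4K91Q, so similar shares were seen outside Zfp600 to Zfp999. For all tested genes they were 20.9% and 25.1% in H4K91R and 22.5% and 23.8% in H4K91Q. The 10 genes of the excluded chromosome 4 interval stood differently: 0 were higher and 7 lower in H4K91R, and 6 were higher and 1 lower in H4K91Q. Their log2 changes ran from -2.11 to 0.15 in H4K91R and from -0.38 to 1.71 in H4K91Q.

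Zfp811 (Entrez 240063, chromosome 17, 32795676 to 32810057) showed the largest increase among called members of at least 1 CPM in both mutants. It encodes a KRAB zinc finger protein with 13 fingers. It stood at 17.0, 23.1 and 22.6 CPM in H4K91R and 18.9, 17.2 and 14.1 CPM in H4K91Q, against 4.45, 4.89 and 4.90 CPM in H4WT. Every mutant library lay above every H4WT library by more than the range of H4WT. Its log2 change was 2.12 ± 0.16 in H4K91R (adjusted p 5.66e-07) and 1.81 ± 0.16 in H4K91Q. Of the genes on either side, the nearer, Zfp799, was also called higher, by 0.55 ± 0.08 in H4K91R and 0.54 ± 0.08 in H4K91Q, while Zfp871 stood at 77.2 ± 5.58 CPM in H4K91R, 83.5 ± 5.38 CPM in H4K91Q and 74.4 ± 5.14 CPM in H4WT (SD, n = 3) and was not called.
The 250 bases before the start sites of these 3 genes are shown because neighbouring copies differed in their changes (RefSeq, GRCm38.p6, minus strand of chromosome 17, 32809932 to 32810181 for Zfp811, whose annotated gene span runs past this start site, 32830262 to 32830511 for Zfp799 and 32788288 to 32788537 for Zfp871). Capitals mark TATAAA in Zfp799 and GGGCGG and CACGTG in Zfp871, and Zfp811 holds none of the 9 words searched.
Zfp811: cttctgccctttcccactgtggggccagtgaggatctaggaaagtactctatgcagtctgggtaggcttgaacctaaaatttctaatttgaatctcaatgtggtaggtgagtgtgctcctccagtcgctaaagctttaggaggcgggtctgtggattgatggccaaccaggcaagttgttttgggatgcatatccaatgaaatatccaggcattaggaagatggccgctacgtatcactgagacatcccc
Zfp799: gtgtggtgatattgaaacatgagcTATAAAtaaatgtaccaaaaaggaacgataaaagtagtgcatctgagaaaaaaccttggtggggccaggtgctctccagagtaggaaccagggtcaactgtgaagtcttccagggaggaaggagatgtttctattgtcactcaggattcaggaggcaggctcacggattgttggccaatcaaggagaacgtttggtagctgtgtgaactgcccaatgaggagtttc
Zfp871: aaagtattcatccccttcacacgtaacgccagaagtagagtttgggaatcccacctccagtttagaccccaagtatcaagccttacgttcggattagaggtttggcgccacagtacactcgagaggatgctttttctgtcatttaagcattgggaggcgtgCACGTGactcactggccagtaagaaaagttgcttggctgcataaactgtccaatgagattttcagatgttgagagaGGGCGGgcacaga

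Zfp786 (Entrez 330301, chromosome 6, 47815536 to 47836197), another KRAB zinc finger gene, stood at 4.09, 3.77 and 4.53 CPM in H4K91R and 2.79, 2.89 and 3.40 CPM in H4K91Q, against 1.2, 1.63 and 0.857 CPM in H4WT. The mutant and H4WT libraries did not overlap. The log2 change was 1.60 ± 0.23 in H4K91R and 1.15 ± 0.23 in H4K91Q (adjusted p 0.000101 and 0.00132), while the other 4 members of its cluster on chromosome 6 did not pass in either mutant.

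Zfp711 (Entrez 245595, chromosome X, 112600526 to 112635070) binds promoters with the histone demethylase Phf8, and mutations of its human counterpart cause intellectual disability. It stood at 9.67, 9.99 and 10.9 CPM in H4K91R and 10.2, 8.87 and 8.79 CPM in H4K91Q, against 4.81, 4.70 and 3.80 CPM in H4WT. All 6 mutant libraries were above all H4WT libraries. The log2 change was 1.17 ± 0.14 in H4K91R and 1.05 ± 0.14 in H4K91Q (adjusted p 2.06e-05 and 4.92e-05).

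Zfp946 (Entrez 74149, chromosome 17, 22424182 to 22456689) stood at 14.4, 16.8 and 14.5 CPM in H4K91R and 16.0, 14.8 and 9.84 CPM in H4K91Q, against 8.18, 7.07 and 6.0 CPM in H4WT. The lowest mutant library was replicate 3 of H4K91Q, still above H4WT. Its log2 change was 1.10 ± 0.18 in H4K91R and 0.94 ± 0.18 in H4K91Q. Zfp606, a KRAB zinc finger gene on chromosome 7 (Entrez 67370, 12478280 to 12496235), stood at 28, 32.9 and 33 CPM in H4K91R and 33.9, 35 and 26 CPM in H4K91Q, against 15.4, 19 and 15.7 CPM in H4WT, with log2 changes of 0.87 ± 0.13 and 0.90 ± 0.13. Here too every mutant library was above every H4WT library.

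Zfp629, which has 19 fingers and no KRAB box (Entrez 320683, chromosome 7, 127607028 to 127615785), varied little between libraries of a group. It stood at 49.7, 53.1 and 48.3 CPM in H4K91R and 45.8, 44.1 and 41.1 CPM in H4K91Q, against 28.1, 29.1 and 29 CPM in H4WT, with log2 changes of 0.81 ± 0.08 and 0.60 ± 0.08 (adjusted p 2.62e-06 and 3.26e-05). The remaining large increases were Zfp641, Zfp647 and Zfp882 in H4K91R, at 1.28 ± 0.37, 0.90 ± 0.14 and 0.90 ± 0.17 on the log2 scale, and Zfp882, Zfp760 and Zfp763 in H4K91Q, at 1.0 ± 0.16, 0.86 ± 0.11 and 0.82 ± 0.13. Zfp641 had 0.815 to 4.56 CPM and lost its call without replicate 2 of either H4K91R or H4WT.

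**Figure D2:**
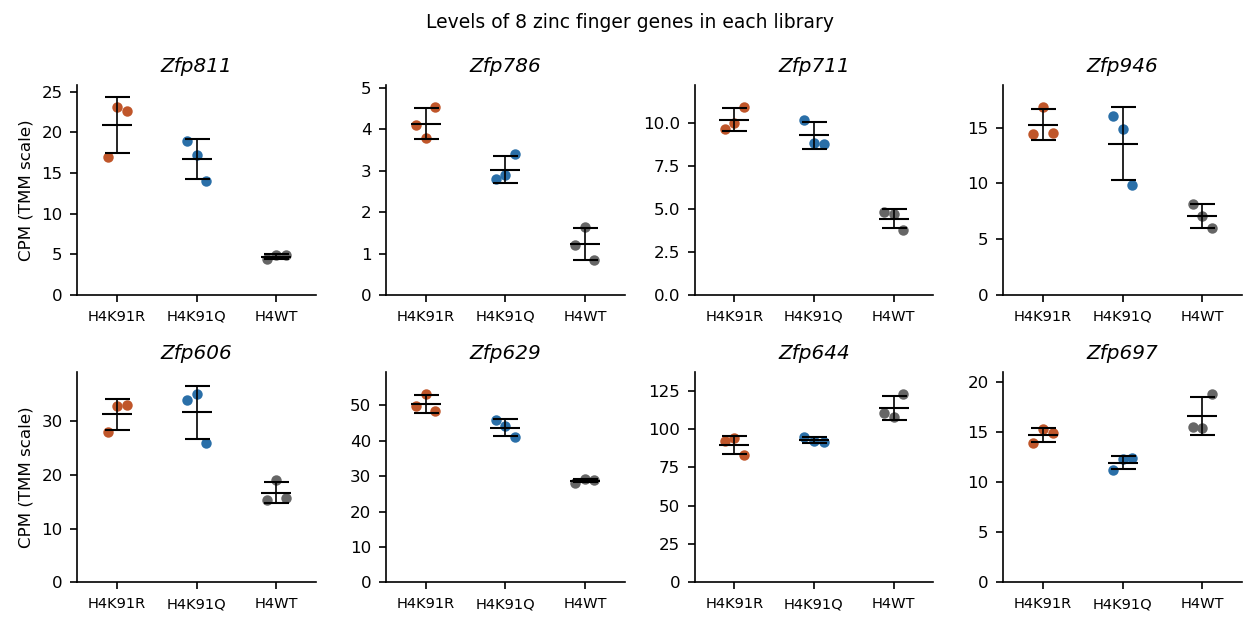
Levels of 8 zinc finger genes in CPM on the TMM scale, in H4K91R, H4K91Q and H4WT. Points are libraries, and the bars give the mean and SD of 3 libraries. Zfp811, Zfp786, Zfp711, Zfp946, Zfp606 and Zfp629 were higher in both mutants, Zfp644 was lower in both, and Zfp697 was lower in H4K91Q.

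Decreases were few. Zfp644 (Entrez 52397, chromosome 5, 106616739 to 106696834), which binds the H3K9 methyltransferases Ehmt1 and Ehmt2, stood at 92.0, 94.1 and 83.1 CPM in H4K91R and 95.1, 92.0 and 91.5 CPM in H4K91Q, against 111, 108 and 123 CPM in H4WT. All 6 mutant libraries were below all H4WT libraries, by 0.34 ± 0.07 and 0.29 ± 0.07 on the log2 scale (log2 changes of -0.34 and -0.29, adjusted p 0.00218 and 0.00561). With library totals alone it was not called in either mutant. Zfp750, an epidermal differentiation factor, was low, at 0.575, 1.57 and 0.295 CPM in H4K91R and 1.29, 1.05 and 0.820 CPM in H4K91Q, against 2.04, 2.22 and 2.57 CPM in H4WT. It fell by 1.45 ± 0.40 in H4K91R and by 1.08 ± 0.36 in H4K91Q on the log2 scale. Keratin and other surface epithelium markers summed to 454 to 536, 504 to 596 and 904 to 993 CPM in H4K91R, H4K91Q and H4WT. Most of each sum came from Krt8 (269.4 to 539.8 CPM over all libraries) and Krt18 (162.6 to 365.5 CPM). Krt5 had at most 0.4815 CPM in any library and was not tested. The part of epithelial cells in the fall of Zfp750 was not tested.

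The other decreases in H4K91Q were Zfp697 (log2 change -0.46 ± 0.11), Zfp800 (-0.43 ± 0.16) and Zfp703 (-0.26 ± 0.09). In H4K91R they were Zfp976 (-0.53 ± 0.13), Zfp971 (-0.38 ± 0.13), Zfp715 (-0.31 ± 0.11) and Zfp809 (-0.27 ± 0.09). Zfp976 and Zfp971 share 35.7% and 69.5% of their 31-base words with other genes' transcripts.

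Members with a described role in the silencing of retroelements or heterochromatin did not move together. Of 5 tested, 2 were lower in H4K91R and none higher (25.1% and 20.9% of all tested genes). In H4K91Q 2 were higher and 1 lower (22.5% and 23.8%). Zfp809, which binds the proline tRNA primer site of murine leukaemia virus and recruits Trim28 to the provirus, stood at 21.4 ± 0.611 CPM in H4K91R, 23.0 ± 1.14 CPM in H4K91Q and 25.7 ± 2.33 CPM in H4WT (SD, n = 3), and its call in H4K91R (adjusted p 0.0311) was lost in 11 of the alternative settings. Zfp932 and Zfp708, KRAB proteins known to bind endogenous retroviral elements, were higher in H4K91Q by 0.40 ± 0.10 and 0.55 ± 0.20. Of their 31-base words, 48.3% and 95.6% also occur in other genes' transcripts. The call of Zfp708 was lost in 5 of the alternative settings, and that of Zfp932 was kept in all. Zfp638, which silences unintegrated retroviral DNA, had log2 changes of -0.15 and -0.06 and was not called, and Zfp819 was too low to test, at 0.295 to 0.345 CPM in H4K91R, 0.515 to 1.10 CPM in H4K91Q and 0.240 to 0.490 CPM in H4WT.

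Of the 8 members with a described neural or neurodevelopmental role, 4 were higher in H4K91R and none lower (20.9% and 25.1% of all tested genes), and in H4K91Q 3 were higher and 1 lower (22.5% and 23.8%). Besides Zfp711, these were Zfp608 (log2 changes of 0.61 ± 0.13 in H4K91R and 0.49 ± 0.13 in H4K91Q), Zfp827, which brings the NuRD complex to chromatin (0.32 ± 0.09 and 0.38 ± 0.09), and Zfp618, a partner of Uhrf2 (0.62 ± 0.13 in H4K91R, and 0.29 ± 0.12 in H4K91Q, which did not pass). Zfp609, which acts in cortical neuron migration, Zfp704 and Zfp746 (PARIS, a repressor of Ppargc1a) were not called in either mutant, and Zfp703 was lower in H4K91Q. The neural markers rose beside them, as given above, and their part in these changes was not tested. Of the remaining members with a described role, Zfp830, needed for splicing and genome stability in the early embryo, was higher in H4K91Q by 0.24 ± 0.08, and Zfp622, Zfp639, Zfp652, Zfp655, Zfp668 and Zfp706 were not called in either mutant.

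Of 38 tested genes listed as KRAB repressor partners, 5 were higher and 6 lower in H4K91R (20.9% and 25.1% of all tested genes), and 8 were higher and 5 lower in H4K91Q (22.5% and 23.8%). Trim28 and Setdb1 were not called. The DNA methyltransferase Dnmt3b was called in opposite directions, with log2 changes of -0.91 in H4K91R and 1.15 in H4K91Q. Called higher in both mutants were H3f3a, which encodes histone H3.3 (0.47 and 0.58), Cbx1 (0.27 and 0.45), Dnmt3a (0.38 and 0.38) and Uhrf1 (0.23 and 0.22). Gatad2a (-0.30 and -0.35) and Morc3 (-0.27 and -0.21) were called lower in both.

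The members were then compared by KRAB box. Of 92 tested members with a KRAB box, 41 were higher and 0 lower in H4K91Q, with a median log2 change of 0.34, while of 49 without one, 14 were higher and 5 lower, with a median of 0.15 (all tested genes: 22.5% higher, 23.8% lower, median 0.01). In H4K91R the counts were 22 higher and 4 lower with a KRAB box and 16 higher and 2 lower without, with medians of 0.17 and 0.22 (all tested genes: 20.9% higher, 25.1% lower, median -0.03). All 5 members that fell in H4K91Q (Zfp644, Zfp697, Zfp703, Zfp750 and Zfp800) thus lacked a recognised KRAB box, and 4 of the 6 that fell in H4K91R (Zfp715, Zfp809, Zfp971 and Zfp976) had one. Among Zfp1 to Zfp599 the counts in H4K91Q were 35 higher and 0 lower of 73 with a KRAB box, and 41 higher and 10 lower of 117 without. These are counts over members that share sequence and position, and the difference between the classes was not tested. In H4K91Q, 1 KRAB member was lower at an unadjusted p below 0.05 in edgeR, and DESeq2 and limma-voom likewise called 0 lower after adjustment.

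**Figure D3:**
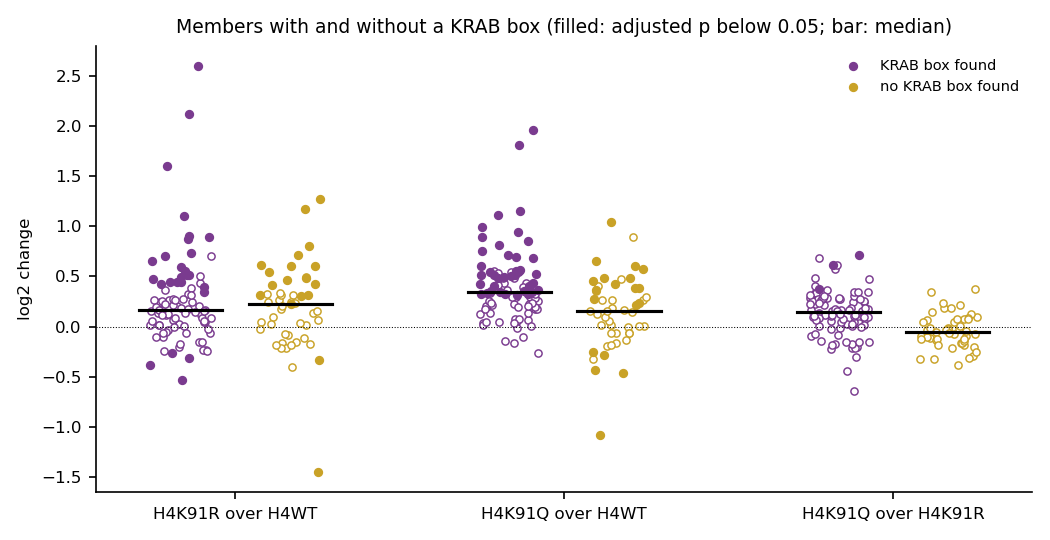
Log2 change of each member with a KRAB box (left strip of each pair) and without one (right strip) for H4K91R over H4WT, H4K91Q over H4WT and H4K91Q over H4K91R. Filled points passed the test and bars are medians. In H4K91Q over H4WT the KRAB members have a median of 0.34 and no called decrease, and over H4K91R their median is 0.14, against -0.06 without a KRAB box.

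By chromosome, the members were spread over 20, with 35 on chromosome 7, 22 on chromosome 17 and 16 on chromosome 8. Of all tested genes, 20.9% were higher and 25.1% lower in H4K91R, and 22.5% higher and 23.8% lower in H4K91Q. On chromosome 17, 7 of 22 were higher in H4K91R and 12 of 22 in H4K91Q, and none was lower. On chromosome 8, 6 of 16 were higher in H4K91R and 9 in H4K91Q, with 1 lower in H4K91Q. On chromosome 7, 8 of 34 tested (23.5%) were higher in each mutant, 2 (5.88%) were lower in H4K91R and none was lower in H4K91Q.

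Among the 15 gene clusters the median log2 change was above 0 in 13 for H4K91R and in all 15 for H4K91Q. It ran from -0.22 to 0.41 in H4K91R and from 0.02 to 0.56 in H4K91Q. At least 1 member was higher in 11 clusters in H4K91R and 13 in H4K91Q, and lower in 3 and 0. Of the 64 tested members outside clusters, 18 (28.1%) were higher and 2 (3.12%) lower in H4K91R, and 24 (37.5%) were higher and 5 (7.81%) lower in H4K91Q. Of the 79 tested members in clusters, 25.3% were higher and 5.06% lower in H4K91R, and 39.2% were higher and 0 lower in H4K91Q. For all tested genes the shares were 20.9% and 25.1% in H4K91R and 22.5% and 23.8% in H4K91Q.

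**Figure D4:**
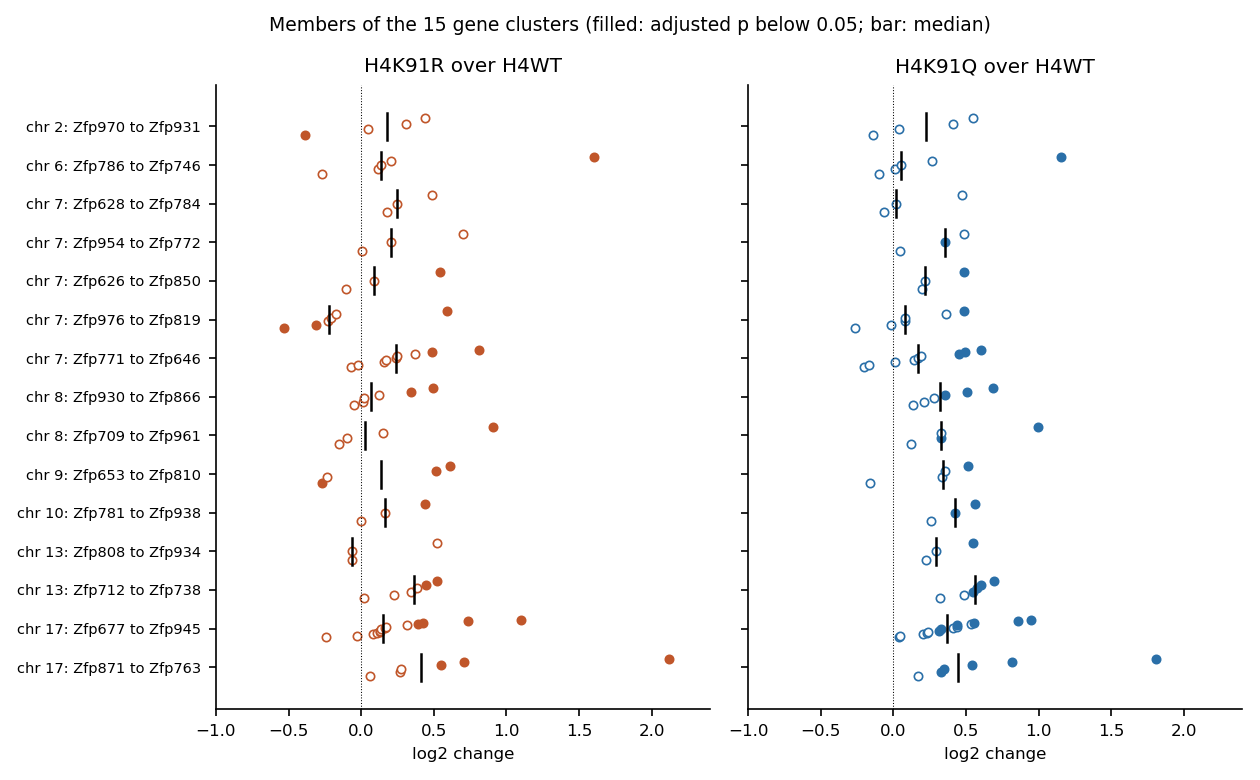
Log2 change of every tested member of the 15 gene clusters, named by their first and last member, for H4K91R over H4WT (left) and H4K91Q over H4WT (right). Filled points passed the test and the bar is the cluster's median, which is above 0 in 13 clusters on the left and in 15 on the right.

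The clusters are described in full below where at least 4 members were called higher in H4K91Q, a choice made after their values were seen. A large cluster reaches this count more easily. In the cluster from Zfp871 to Zfp763 (chromosome 17, 32765496 to 33033381), all 6 members have a KRAB box and all 6 had positive changes in both mutants. There, 3 were called higher in H4K91R and 5 in H4K91Q (20.9% and 22.5% of all tested genes were). After Zfp811 came Zfp763, at 14.1 ± 1.75 CPM in H4K91R and 15.1 ± 1.55 CPM in H4K91Q against 8.47 ± 0.593 CPM in H4WT (SD, n = 3), and Zfp799, at 25.3 ± 0.572 and 25.2 ± 0.614 CPM against 17.3 ± 0.378 CPM. Other protein-coding genes in this span were taken by a name filter. It left out zinc finger genes, olfactory and vomeronasal receptors and provisional names (Gm and Rik). Only 1 gene so chosen could be tested, and its log2 changes were -0.01 in H4K91R and 0.09 in H4K91Q.

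In the larger cluster on the same chromosome, from Zfp677 to Zfp945 (21383707 to 22867309), all 14 members have a KRAB box. There, 4 were higher in H4K91R (28.6%) and 6 in H4K91Q (42.9%), and all 14 changes were positive in H4K91Q. Of all tested members 26.6% and 38.5% were higher, and of all tested genes 20.9% and 22.5%. Zfp760 led after Zfp946, at 16.8 ± 0.491 CPM in H4K91R and 18.2 ± 1.74 CPM in H4K91Q against 10.1 ± 0.940 CPM in H4WT. Zfp758, Zfp942 and Zfp948 were not called in either mutant, with log2 changes from -0.25 to 0.21.
Of the 14 promoters, 8 hold the E-box CACGTG (both strands read alike) within 250 bases before the start, against 6.04% of 27025 promoters of that length in the RefSeq table and 10.8% of the 130 members found there. These 8 promoters hold 6 distinct matches, since each of 2 divergent pairs shares one. Windows are shown because the same letters recur across the copies, and that of Zfp994 (22225755 to 22225788, minus strand) was left out. Zfp994 was called higher in H4K91Q and did not pass in H4K91R. Capitals mark the E-box, and coordinates are GRCm38.p6 on chromosome 17, 22424178 to 22424201 for Zfp946 (plus strand), 21845859 to 21845892 for Zfp820, 22166029 to 22166062 for Zfp947, 21962499 to 21962532 for Zfp942 and 22361410 to 22361443 for Zfp944 (minus strand).
Zfp946: tgtttggggggaacCACGTGaccg
Zfp820: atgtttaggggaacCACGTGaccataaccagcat
Zfp947: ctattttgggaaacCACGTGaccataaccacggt
Zfp942: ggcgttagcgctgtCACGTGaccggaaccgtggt
Zfp944: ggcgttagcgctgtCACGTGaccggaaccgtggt
The windows of Zfp942 and Zfp944 are identical, and each lies between divergent starts, with Zfp943 95 bases from Zfp942 and Zfp758 63 bases from Zfp944. Of these 4 divergent genes only Zfp943 was called, higher in H4K91Q. Among members with a KRAB box 16.3% hold an E-box and among those without 0 of 42 do. This cluster accounts for 8 of the 14 member promoters with an E-box. Of members higher in both mutants 3.85% (1 of 26) hold one, and of those that passed in neither 12.3% (8 of 65) do.

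In the cluster from Zfp712 to Zfp738 (chromosome 13, 67038594 to 67683512), all 6 members had positive changes in both mutants, with 2 called in H4K91R and 4 in H4K91Q and a median log2 change of 0.36 and 0.56. Of all tested genes 20.9% and 22.5% were called higher. Zfp748 stood at 16.6 ± 3.15 CPM in H4K91R and 18.4 ± 2.79 CPM in H4K91Q against 12.2 ± 0.767 CPM in H4WT, and Zfp712 at 4.28 ± 0.535 and 4.79 ± 0.0571 CPM against 3.0 ± 0.370 CPM (SD, n = 3). Both calls in H4K91R were lost without replicate 2 of H4K91R and without replicate 1 or 2 of H4WT, that of Zfp712 also without replicate 3 of H4K91R and with DESeq2, and that of Zfp748 also with thinned counts. Zfp708 shares 95.6% of its 31-base words with other genes' transcripts and its value is uncertain.
The word ACTACANNT, part of the site of Znf143, a factor of many housekeeping promoters, lies in 5 of these 6 promoters, against 3.92% of all promoters and 10.8% of the members found in the table. All 5 matches are on the strand opposite to the gene, so the printed letters are the reverse complement, in capitals (chromosome 13, 67061195 to 67061243, 67128159 to 67128207, 67360616 to 67360664, 67553153 to 67553195, 67683537 to 67683585, in the order shown).
Zfp712: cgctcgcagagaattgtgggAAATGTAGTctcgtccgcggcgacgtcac
Zfp759: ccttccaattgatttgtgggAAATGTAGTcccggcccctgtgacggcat
Zfp953: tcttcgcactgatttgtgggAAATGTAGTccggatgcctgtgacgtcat
Zfp748: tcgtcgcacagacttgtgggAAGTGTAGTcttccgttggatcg
Zfp738: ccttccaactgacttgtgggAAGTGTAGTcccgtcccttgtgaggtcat
Of these, Zfp712, Zfp748 and Zfp759 were called higher in H4K91Q and Zfp738 and Zfp953 were not. Zfp708, whose promoter lacks the word, was also called higher in H4K91Q. Of members higher in both mutants 11.5% (3 of 26) hold the word, and of those that passed in neither 10.8% (7 of 65) do. The other 7 words, searched on both strands, were the GC box GGGCGG (in 33.0% of all promoters and 40.0% of members), the NRF1 word GCGCNNGCG (10% and 11.5%), the ETS word CCGGAAG (7.07% and 14.6%), the CRE TGACGTCA (1.60% and 0.769%), the TATA word TATAAA (13% and 3.08%), the YY1 word AAGATGGCG (0.592% and 0.769%) and the RFX word GTTGCCNNG (4.17% and 1.54%), and words overlapped in 3 member promoters. These are shortened words, chosen after longer forms had been searched in the same promoters. A match is a string of letters and does not show binding.

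The other clusters held at most 3 members called higher in H4K91Q. On chromosome 8, Zfp882, Zfp617, Zfp963, Zfp866 and Zfp930, the last picked after its values were seen, rose in H4K91Q by 1.0 ± 0.16, 0.33 ± 0.07, 0.69 ± 0.12, 0.50 ± 0.08 and 0.35 ± 0.14 on the log2 scale. Zfp617 and Zfp963 share 47.7% and 41.6% of their 31-base words with other genes' transcripts, so their values are uncertain. In the cluster from Zfp771 to Zfp646 on chromosome 7, Zfp629 had the largest change in both mutants. There, Zfp768, also picked after its values were seen, rose by 0.48 ± 0.09 in H4K91R and 0.45 ± 0.09 in H4K91Q, and Zfp689 rose by 0.49 ± 0.14 in H4K91Q but did not pass in H4K91R (0.25 ± 0.15). Of 18 tested genes in that span left by the name filter given above, 5 were higher and 1 lower in H4K91R (20.9% and 25.1% of all tested genes). In H4K91Q 3 were higher and 0 lower (22.5% and 23.8%). The cluster from Zfp976 to Zfp819, also on chromosome 7, was mixed in H4K91R, with Zfp658 higher (0.59 ± 0.16) and Zfp976 and Zfp715 lower. Elsewhere the members named for their cluster were Zfp653 and Zfp810 on chromosome 9 (0.61 ± 0.16 and 0.51 ± 0.13 in H4K91R), Zfp873 and Zfp938 on chromosome 10 (0.56 ± 0.14 and 0.42 ± 0.12 in H4K91Q), Zfp934 on chromosome 13 (0.55 ± 0.20 in H4K91Q), and Zfp772 and Zfp974 on chromosome 7 (0.36 ± 0.13 and 0.48 ± 0.14 in H4K91Q). The values of Zfp934, Zfp772 and Zfp974 are likewise uncertain, with 43.8%, 26% and 24.4% of their 31-base words shared.

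The comparison of the mutants with each other also tests whether their effects against H4WT differ. Of the 143 members, 3 were higher in H4K91Q than in H4K91R (2.37% of all tested genes) and 0 were lower (2.78%). By edgeR 8 were lower at an unadjusted p below 0.05, and DESeq2 and limma-voom also called 0 lower after adjustment. Between the same groups 6 of 6 pluripotency markers were called higher (median log2 difference 2.22) and 4 of 10 neural markers lower, and their part in the members' differences was not tested. Zfp976 stood at 12.2, 12.1 and 10.1 CPM in H4K91Q, against 8.23, 7.63 and 6.5 CPM in H4K91R. The H4K91Q libraries did not overlap those of H4K91R and lay near H4WT, at 10.3, 10.6 and 11.8 CPM, with a log2 difference of 0.61 ± 0.13 (adjusted p 0.0189). Zfp936 stood at 8.53, 8.77 and 7.15 CPM in H4K91Q, against 4.78, 4.64 and 5.61 CPM in H4K91R, a log2 difference of 0.72 ± 0.16 (adjusted p 0.0215). Zfp932 stood at 30.0, 33.6 and 26.7 CPM in H4K91Q, against 23.6, 22.8 and 23.3 CPM in H4K91R, a log2 difference of 0.37 ± 0.10 (adjusted p 0.0450). In both genes every H4K91Q library was above every H4K91R library. Zfp976 and Zfp936 are KRAB genes of the same cluster on chromosome 7, and Zfp932 is a KRAB gene on chromosome 5.

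Each of these 3 genes shares much of its transcript sequence with a relative: 48.3% of the 31-base words of Zfp932 (44.2% of its words with Gm15446), 35.7% of those of Zfp976 (22.9% of its words with Zfp975), and 31.4% of those of Zfp936. Reads from such stretches cannot be assigned to 1 gene from sequence alone. Over 20% was shared in 29 members. Of these, 27 had a KRAB box and 25 a positive log2 difference between H4K91Q and H4K91R, with a median of 0.26. Of 114 tested members with at most 20% shared, 65 were positive, with a median of 0.05. None of the 114 was called by edgeR, DESeq2 or limma-voom (11 were higher and 8 lower at an unadjusted p below 0.05 in edgeR). Among them, 48 of 65 with a KRAB box were positive (median 0.10) and 16 of 47 without (median -0.07). Shared sequence and KRAB box thus overlapped, and the part of each was not tested. Against H4WT, 36 of the 38 members higher in H4K91R and 43 of the 55 higher in H4K91Q shared at most 20%, as did 114 of all 143 tested members. Of the 29 members over 20%, 2 were higher in H4K91R and 12 in H4K91Q (20.9% and 22.5% of all tested genes). Among members with at most 20% shared, 30 of 65 with a KRAB box and 13 of 47 without were higher in H4K91Q.

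**Figure D5:**
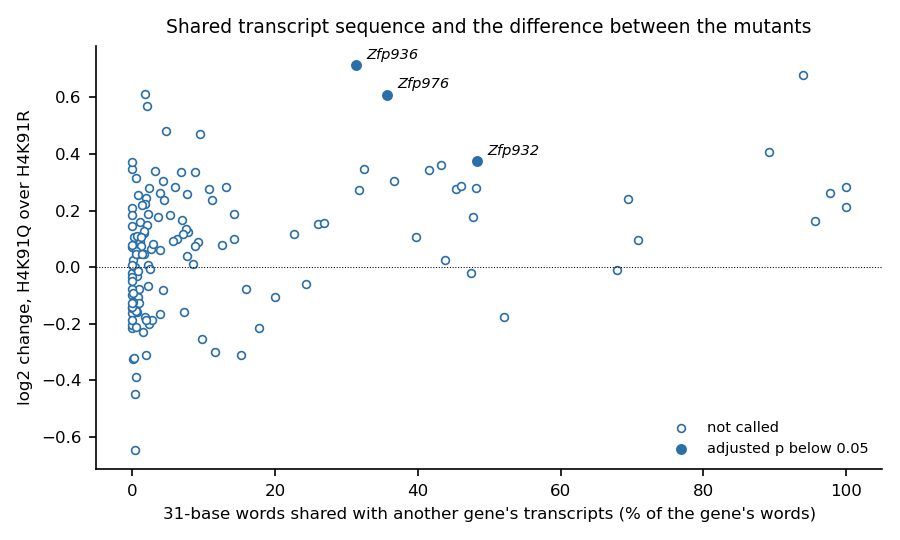
Percentage of a member's 31-base words that also occur in transcripts of another gene (horizontal) and its log2 change in H4K91Q over H4K91R (vertical), for 143 members. The 3 called members, Zfp936, Zfp976 and Zfp932, lie between 31.4% and 48.3%, and no member with at most 20% shared was called.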

How the data were processed

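Poly(A) RNA of 9 libraries (3 per group) was measured. The authors deposited expected counts per gene, as whole numbers. Salmon 0.8.2, mm10 and DESeq2 are named in the submitters' processing notes. The annotation, strand setting and any rounding steps were not given in the sources used here. Genes were filtered by group with filterByExpr (minimum count 10) and libraries TMM-scaled in edgeR 4.0.16 (R 4.3.3). The quasi-likelihood fit used all 9 libraries and a mean for each group. P-values were two-sided and Benjamini-Hochberg adjusted over 14761 genes, with a threshold of 0.05. Levels are CPM on the TMM scale. Errors of log2 changes are SE from the F statistic. Gene positions came from RefSeq (GRCm38.p6), and exon lengths, fingers and KRAB boxes (by amino acid pattern) from translated GENCODE M21 transcripts. Named genes were the 8 largest increases and decreases per mutant among called members of at least 1 CPM, the 5 each way between mutants, all members with a listed role, up to 2 per cluster and the 5 highest per kilobase. Members, gene lists and rules were chosen with earlier results of these data known. Alternatives were RLE scaling, library totals, no filter, DESeq2 1.42.0, limma-voom (limma 3.58.1), a replicate block, the compared groups alone, counts thinned to the smallest total and leaving out each library; limits of 20% shared words and 5 CPM were added after seeing the data. The test was tried on simulated data first.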

Additional observations from a re-analysis of the deposited data

Results flagged for a closer look

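The effects of the mutants against H4WT differed for 3 members, by the test of H4K91Q against H4K91R. The log2 differences were 0.61 for Zfp976, 0.72 for Zfp936 and 0.37 for Zfp932. Each was called at an adjusted p below 0.05 over all tested genes and shares over 20% of its 31-base words with other transcripts, and the part of shared sequence in the differences was not tested.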

How the results depend on the processing

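With library totals alone, which moved the median of all tested genes to 0.15 and 0.18 log2, the count of higher members was 77 in H4K91R and 94 in H4K91Q, and of lower members 2 and 2. Among members with at most 20% of shared 31-base words, a choice made after seeing the data, 0 were higher in H4K91Q than in H4K91R. Leaving out 1 library gave 27 to 41 members higher and 3 to 6 lower in H4K91R, 38 to 62 higher and 2 to 7 lower in H4K91Q, and 0 to 7 higher and 0 to 1 lower in H4K91Q over H4K91R. The lower count in H4K91R was 3 without H4WT replicate 3. The lower count in H4K91Q was 3 without H4K91Q replicate 1 and 2 without H4K91Q replicate 2 or H4WT replicate 3. The count of members higher in H4K91Q than in H4K91R was 1 without H4K91R replicate 1, 0 without H4K91R replicate 2 or H4K91Q replicate 1 or 2, and 7 without H4K91Q replicate 3, where 1 was also lower. Of the 38 and 55 members higher in H4K91R and H4K91Q, 22 and 32 were called in every setting run, and of the 3 between the mutants none was. The other settings kept the counts within 1.5 times, including a limit of 5 CPM chosen after seeing the data (34 higher and 5 lower in H4K91R, 51 and 4 in H4K91Q) and counts thinned to the smallest total (35 and 5, 42 and 4), where depth left 140 members to test. No call of a named member changed sign, while values that were not called changed sign in 70 pairs of value and setting; calls lost in 5 or more settings were Zfp963 (12), Zfp809 (11), Zfp715 (8), Zfp712 and Zfp971 (5) in H4K91R, Zfp772 (10), Zfp800 (6), Zfp703, Zfp708, Zfp750 and Zfp936 (5) in H4K91Q, and Zfp932 (11) between the mutants. The causes were not tested.

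Replicate numbers were not taken to pair the libraries: deviations of same-numbered libraries from their group means correlated at -0.216 to 0.243, above 0.1 in 5 of 9 pairs, including the 3 pairs of replicate 1, and those of differently numbered libraries at -0.346 to 0.342. With the replicate block, 39 members were higher and 6 lower in H4K91R, 56 higher and 7 lower in H4K91Q, and 2 higher and 0 lower between the mutants. Gaps of 250 and 1000 kb gave 14 and 16 clusters with 68 and 89 members, and a looser pattern found 95 KRAB boxes.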
